A study of Mus musculus with 2 samples.

Results

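The *Lce3* genes are the 6 late cornified envelope genes *Lce3a*, *Lce3b*, *Lce3c*, *Lce3d*, *Lce3e* and *Lce3f* on mouse chromosome 3. They were taken as the probes whose gene name on the array is one of these symbols, and 6 probes, 1 per gene and each spotted once, met this rule among the 30132 genes the array names. The family was chosen with its values on these arrays already known, from the intensity of *Pnpla1*-/- against *Pnpla1*+/+ skin, so its own differences are a description and carry no test. PNPLA1 is a lipase-like enzyme of the upper epidermis that takes part in making acylceramide, a barrier lipid. Skin RNA of newborn mice at postnatal day 0 on a C57BL/6N background was hybridized with Cy3, a single fluorescent dye, to 1 oligonucleotide array per genotype, each array holding equal amounts of RNA pooled from 6 animals. The *Pnpla1*-/- pups were homozygous for a targeted knockout-first allele, made in C57BL/6N embryonic stem cells, from which flippase had removed the *IRES-LacZ* and *Neo* cassettes, and the *Pnpla1*+/+ controls were littermates from the same heterozygous intercrosses. The knockout was global, every cell of the body carrying it, and the tissue is labelled skin, although the deposited design also uses the word epidermis.

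Late cornified envelope proteins are small proteins rich in glycine, cysteine and proline that keratinocytes make at the very end of their differentiation. Transglutaminases cross-link them into the cornified envelope, the protein shell that replaces the plasma membrane of a corneocyte. Their genes lie in the epidermal differentiation complex, and in human skin the *LCE3* group is known for being low in healthy epidermis and induced after injury and in psoriasis, whereas the *LCE1* group belongs to normal terminal differentiation.

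The probes are shown first because 3 of them are close to one another in sequence, which bears on whether 3 of the values can be told apart. Each probe had 60 bases, and a stretch of 30 is given, 5′ to 3′, read from the scanner files. For *Lce3b* and *Lce3c* it holds bases 20 to 49 of the probe and for the other 4 bases 1 to 30. Capitals mark the 4 positions at which the *Lce3b*, *Lce3c* and *Lce3d* stretches differ.
Lce3b: tcttgttttGtctgatcctggaCaCCcttc
Lce3c: tcttgttttAtctgatcctggaGaGTcttc
Lce3d: tcttgttttGtctgatcctggaGaACcttc
Lce3a: ccttctcatggttccatcacctgtgtccaa
Lce3e: ggtagcttaggacttcatatgtcctataca
Lce3f: tgggaaagaaacactatcaaaaacgagtct

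The *Lce3b* and *Lce3c* probes matched at 54 of 60 bases, with 28 in 1 unbroken run. Lined up over 41 bases, the *Lce3d* probe matched *Lce3b* at 37 and *Lce3c* at 38. Whether RNA of 1 of these 3 genes also bound the spots of the others was not tested. The probes of *Lce3a*, *Lce3e* and *Lce3f* shared no run longer than 7 bases with any other *Lce3* probe. Probes were compared only with probes, and a match to the transcript of another gene was not looked for. None of the 39423 other probes on the array held a run of 16 bases in common with an *Lce3* probe. On mm9 the probes lay on chromosome 3 at chr3:92729210-92729269 (*Lce3a*), chr3:92737872-92737931 (*Lce3b*), chr3:92749506-92749565 (*Lce3c*), chr3:92762371-92762430 (*Lce3d*), chr3:92772139-92772198 (*Lce3e*) and chr3:92797108-92797167 (*Lce3f*), and which exon or untranslated part each one lies in was not determined here.

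All 6 genes were higher in *Pnpla1*-/- skin, by 13.3-fold to 863-fold. Intensities are given as deposited, after background subtraction, with the error that the scanner software assigned to the spot. A difference is log2 of the *Pnpla1*-/- over the *Pnpla1*+/+ (WT) value, once each array had been divided by the 75th percentile of its own spots (2108 for WT and 1734 for *Pnpla1*-/-). With a single array per genotype there was no replicate and no test, the number of arrays limits the precision, and each difference describes these 2 pools. In whole skin, more cells that make a transcript and more transcript per cell cannot be told apart.

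*Lce3a* had the widest difference. Its intensity was 57.7 ± 7.56 in WT and 40951 ± 4095 in *Pnpla1*-/- skin, and the log2 difference was 9.75 ± 0.24 (software error), or 863-fold. The WT spot was dim, with a mean pixel intensity of 117 over a local background of 24, but was well above background by the software's rule. *Lce3f* was the other gene near the floor of the control array. It measured 51.0 ± 8.68 in WT and 6873 ± 687 in *Pnpla1*-/- skin, which gave a log2 difference of 7.36 ± 0.28, or 164-fold. Normexp background correction in place of the deposited subtraction moved these 2 genes the most, to log2 differences of 8.76 for *Lce3a* and 5.95 for *Lce3f*.

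The other 4 genes had clear signal on both arrays. The *Lce3b* spot read 3502 ± 350 in WT and 80617 ± 8062 in *Pnpla1*-/- skin (log2 difference 4.81 ± 0.20). *Lce3e* went from 898 ± 90.1 to 20559 ± 2056 (4.80 ± 0.20). The differences of *Lce3b* and *Lce3e* were 0.007 apart, far within the software error, and under quantile normalization and cyclic loess *Lce3e* came out ahead. *Lce3d* went from 5969 ± 597 to 90558 ± 9056 (4.21 ± 0.20), or 18.4-fold. *Lce3c* went from 6801 ± 680 to 74563 ± 7456 (3.74 ± 0.20), the smallest difference of the family. The gaps from *Lce3e* to *Lce3d* (0.59) and from *Lce3d* to *Lce3c* (0.47) were each above 1 software error of a difference, and the cross-matching probes of *Lce3b*, *Lce3c* and *Lce3d* limit what can be read from the order of these 3.

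**Figure D1:**
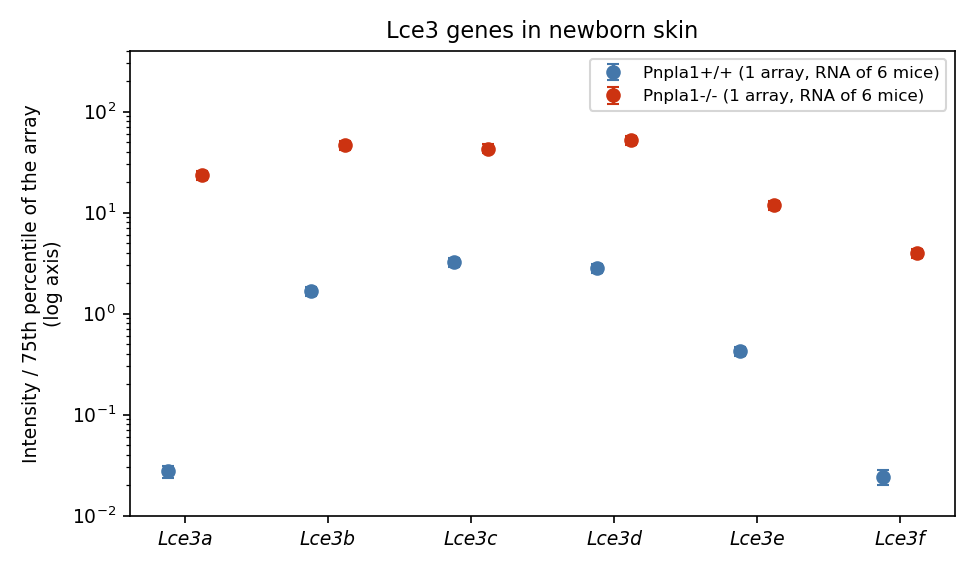
Intensity of the 6 *Lce3* probes divided by the 75th percentile of the array (log axis), with 1 point per array and bars for the scanner software's error. Each *Pnpla1*-/- point lies above the WT point of the same gene, and *Lce3a* and *Lce3f* have the dimmest WT points.

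No spot of the family was saturated or flagged as an outlier, and all 6 were well above background on both arrays, so no value is a bound. The median log2 difference of the family was 4.80, and the summed scaled intensity rose from 8.19 to 181, or 22.1 times. Over all 22381 genes with a difference or a bound the median was 0.003, and 6.7% of them rose and 3.04% fell by 2-fold or more, the size of change that is counted throughout. These shares are the background to every count of a list given below. They also stand beside the 6 of 6 *Lce3* genes past that size, a count from which nothing is read because the family was chosen on the same contrast. Among the 20679 genes well above background on both arrays, ranked from the largest increase, *Lce3a* stood at rank 3, *Lce3f* at 13, *Lce3b* at 40, *Lce3e* at 41, *Lce3d* at 67 and *Lce3c* at 86. Repeated spots elsewhere on these arrays gave a technical SD of a difference of 0.08, which leaves out the variation between mice.

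**Figure D2:**
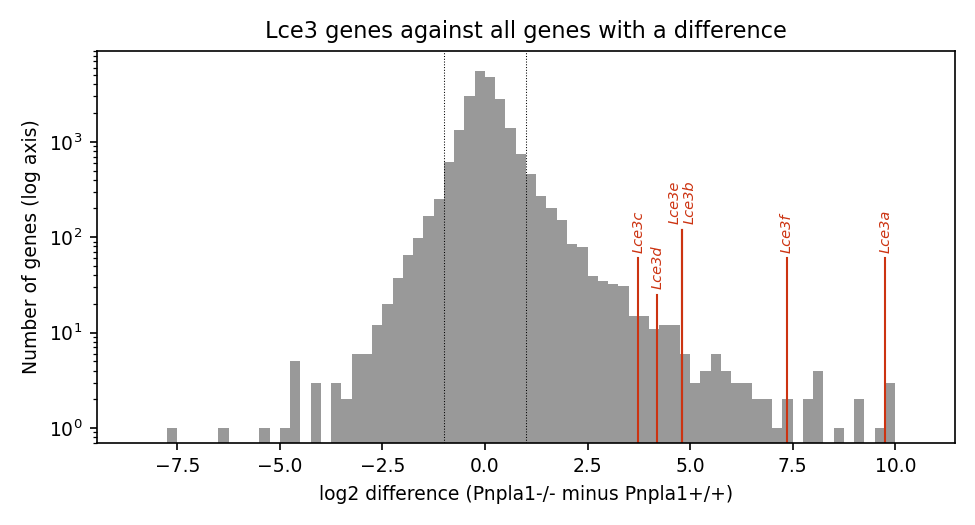
Number of genes (log axis) by log2 difference (*Pnpla1*-/- minus *Pnpla1*+/+) for genes with a difference or a bound, with the 6 *Lce3* genes as red lines and 2-fold as dotted lines. The *Lce3* genes lie between 3.74 and 9.75, in the right tail.

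*Pnpla1* itself was checked on the same arrays. Its probe read 579 in WT and 114 in *Pnpla1*-/- skin (log2 difference -2.07). The *Pnpla1*-/- spot remained above background, and the place of the probe relative to the deleted part of the gene was not determined here.

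The *Lce3* genes form 1 block, and none of its measured neighbours, each read by its brightest probe, rose by 2-fold or more. From the *Lce3a* probe to the *Lce3f* probe the block spanned 68.0 kb on mm9 (67958 bases) and held 8 probes, the 6 *Lce3* probes and 2 with no gene name. The unnamed probe between *Lce3d* and *Lce3e*, at chr3:92770730-92770789, measured 26.7 in WT and 25.3 in *Pnpla1*-/- skin, with a log2 difference of 0.20. The unnamed probe between *Lce3e* and *Lce3f*, at chr3:92787436-92787495, did not rise above background in WT or *Pnpla1*-/- skin. Of the 12 measured genes nearest to the block in the order of the annotation, 6 on each side, 0 rose and 7 fell by 2-fold or more, with a median log2 difference of -1.18.

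Before *Lce3a* came *2310050C09Rik*, whose intensity was 57276 in WT and 26351 in *Pnpla1*-/- skin (log2 difference -0.84). Farther out were *Lce1l* (log2 difference -1.96), *Kprp*, a keratinocyte proline-rich protein (-1.06), *Lce1k* (-1.40), *Lce1i* (-1.30) and *Lce1h* (-1.60). Beyond *Lce3f* came *Crct1*, a cysteine-rich protein of cornifying cells, with 116699 in WT and 82537 in *Pnpla1*-/- skin. The log2 difference was -0.22, while its second, far dimmer probe gave 0.52. Next to it was *Lce1m*, with 90931 in WT and 352 in *Pnpla1*-/- skin (-7.73). Between *Lce3f* (7.36) and *Lce1m* the array measured no gene but *Crct1*. After these came *Tdpoz8* (0.06), *Crnn*, which encodes cornulin (-0.76), *Flg2*, a filaggrin-like S100 fused-type protein (20467 to 198, -6.41), and *Flg*, which encodes filaggrin (-0.04). The other 2 probes of *Flg* gave -0.39 and -0.76, and the dimmer probe of *Tdpoz8* gave 1.21 (159 in WT and 301 in *Pnpla1*-/- skin). The sign of *Tdpoz8* and *Crct1* depended on the scaling or on the probes used.

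**Figure D3:**
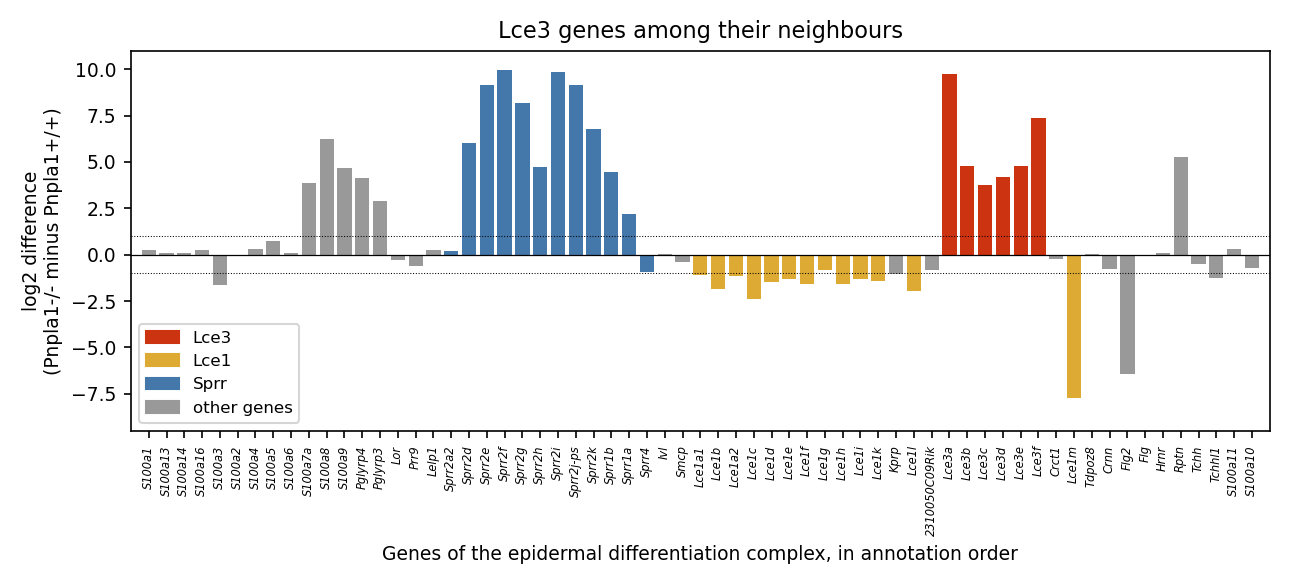
Log2 difference, *Pnpla1*-/- minus *Pnpla1*+/+, of the 63 genes of the epidermal differentiation complex with a difference or a bound, in annotation order, with dotted lines at 2-fold. The red *Lce3* bars, all above 3.7, stand between *Lce1* genes that are all below 0.

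The epidermal differentiation complex held 101 annotated genes, 66 of them with a probe and 63 with a difference or a bound. Of the 57 genes other than *Lce3*, 16 rose (28.1%) and 16 fell by 2-fold or more, against 6.7% and 3.04% of all genes. Their median log2 difference was 0.02.

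The *Lce1* genes, the related late cornified envelope group that the normal newborn epidermis expresses, were lower. Of 14 *Lce1* genes, 13 had a probe, and 12 of these fell and 0 rose by 2-fold or more. Their median log2 difference was -1.46, and their summed scaled intensity fell to 0.344 of its WT value. The smallest decrease was that of *Lce1g*, with 42815 in WT and 19734 in *Pnpla1*-/- skin (log2 difference -0.84). *Lce1c* measured 106404 and 16452 (-2.41), and *Lce1b*, read by 10 spots of its probe, 68683 and 15862 (-1.83). The highest difference of an *Lce1* gene (-0.84) lay below the lowest of an *Lce3* gene (3.74). Of 6 other genes of the late cornified envelope region, 5 had a probe, and 1, *Kprp*, fell by 2-fold or more while 0 rose. The count that fell was 3 under spike-in centring and 2 without scaling or with quantile normalization. *Prr9*, a proline-rich protein, had a log2 difference of -0.59, and *Lelp1*, a late cornified envelope-like protein, had 0.27, with a sign that turned when the arrays were not scaled.

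The *Sprr* genes encode small proline-rich proteins, which act as cross-bridges in the envelope, and most of them were higher too. Of 16 genes, 12 had a difference or a bound, 10 rose and 0 fell by 2-fold or more, and the median log2 difference was 6.40. *Sprr2f* went from 57.5 in WT to 47601 in *Pnpla1*-/- skin (9.98), *Sprr2i* from 103 to 77101 (9.83) and *Sprr2j-ps* from 61.9 to 29469 (9.18). Like *Lce3a* and *Lce3f*, these had dim spots on the WT array. *Sprr4* (-0.92) and *Sprr2a2* (0.19) stayed under 2-fold, and the mean over the 3 *Sprr2a2* probes was 3.36. *Sprr2a1* and *Sprr3* were not above background on either array.

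Most other envelope precursors did not move with *Lce3*. Of 11 precursors, 2 rose and 1 fell by 2-fold or more, against 6.7% and 3.04% of all genes, with a median of -0.03. *Rptn*, which encodes repetin, went from 603 in WT to 19047 in *Pnpla1*-/- skin (log2 difference 5.26), and *Cnfn*, which encodes cornifelin, from 25107 to 105221 (2.35). *Flg2*, *Crnn* and *Tchh*, the gene of trichohyalin (-0.48), were the lowest, and *Evpl*, the gene of envoplakin, was at 0.30.

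Of 7 genes of envelope cross-linking and its protease control, 4 rose and 0 fell by 2-fold or more, with a median of 1.01. Among all genes the shares were 6.7% and 3.04%. *Tgm3* (1085 to 3866, log2 difference 2.12), *Tgm1* (2942 to 8764, 1.86) and *Tgm5* (5442 to 10798, 1.27) encode the transglutaminases of the epidermis. *Tgm3* had a second probe that did not follow (1710 in WT and 1433 in *Pnpla1*-/- skin, 0.03), and the mean over both was 1.07. *Ctsl*, a lysosomal protease (0.14), *Tgm2* (0.44) and *Cst6*, the gene of the protease inhibitor cystatin M/E (0.98), were the lowest of the list. The median fell to 0.58, with 2 genes at least 2-fold higher, when the arrays were centred on the spike-in RNA.

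Of 28 transcription factors known for a role in epidermal differentiation or at the complex, 5 rose and 1 fell by 2-fold or more, with a median of 0.16. Among all genes 6.7% rose and 3.04% fell by that size, so the 1 that fell is near the general share. The median turned to -0.27 under spike-in centring. *Grhl3*, a grainyhead-like factor of barrier formation and wound repair, went from 4689 in WT to 21384 in *Pnpla1*-/- skin (log2 difference 2.47). *Fosl1*, an AP-1 subunit, went from 176 to 583 (2.01), and *Ovol1*, a zinc finger repressor of keratinocyte proliferation, from 1056 to 2620 (1.59). *Fos*, another AP-1 subunit, was lower at -1.01, as were *Pou3f1* (-0.88) and *Satb1* (-0.44). All these values were smaller than that of any *Lce3* gene.

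Genes known to be induced in stressed or wounded epidermis were mostly higher. Of 12 such genes, 11 rose and 0 fell by 2-fold or more, with a median of 4.56. The beta-defensin gene *Defb3* was not well above background in WT skin and was at least 412-fold higher in *Pnpla1*-/- skin, where it measured 8105. A bound of this kind sets the *Pnpla1*-/- signal against the lowest signal well above background on the WT array. *Slpi*, the gene of a secreted leukocyte protease inhibitor, had a log2 difference of 7.81 and *Krt6b*, a wound keratin, 7.20. *Krt17*, also a keratin of wounded and follicular epidermis, had the lowest value at 0.65, below *Il1b* (2.84) and *Il36g* (2.93), which encode interleukins and the latter of which stands on the array as *Il1f9*.

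**Figure D4:**
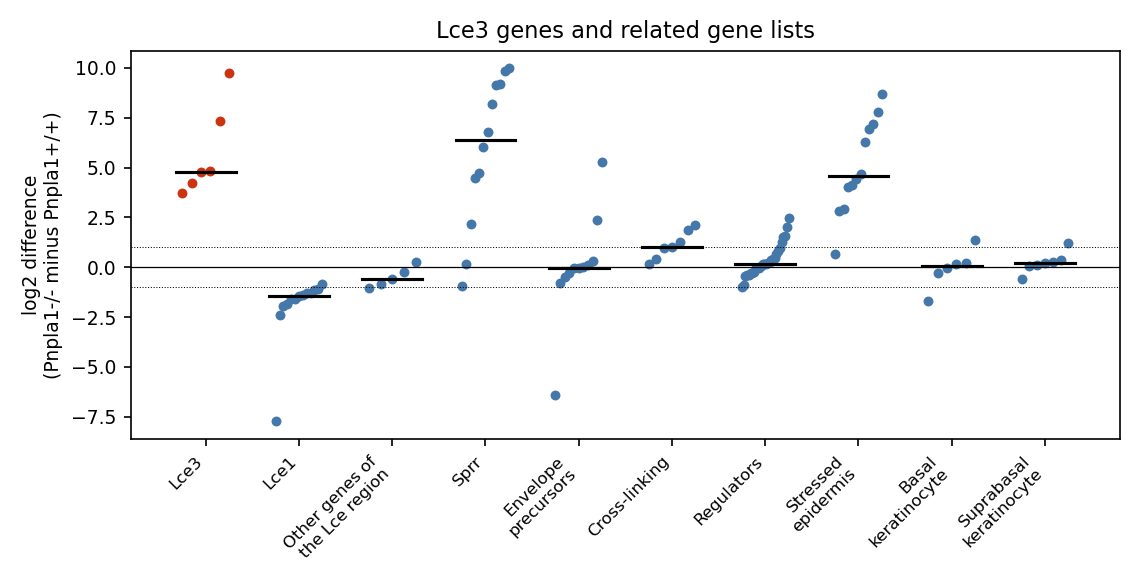
Log2 difference, *Pnpla1*-/- minus *Pnpla1*+/+, of each gene (points) of *Lce3* and of 9 related lists, with the list's median as a bar and dotted lines at 2-fold. The *Lce3*, *Sprr* and stressed epidermis lists have medians of 4.80, 6.40 and 4.56, against -1.46 for *Lce1*.

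The tissue carried the markers of newborn skin on both arrays. Of 6 basal keratinocyte markers, 1 rose (*Krt14*, log2 difference 1.35) and 1 fell (*Krt15*, -1.67) by 2-fold or more, with a median of 0.06. Of 7 suprabasal markers, 1 rose (*Dsc1*, 1.20), and *Krt10*, the brightest of them, went from 277989 to 262540 (0.20). The medians of both lists fell below 0 under spike-in centring, without scaling and with quantile normalization, and the basal median also with median scaling. Under spike-in centring *Krt14* (0.92) and *Dsc1* (0.77) were under 2-fold. In that setting 1 suprabasal marker fell by 2-fold or more. Without scaling, 0 suprabasal markers rose by that size. The largest increase among these 13 markers was 2.54-fold, for *Krt14*. The part of the number of keratinocytes in the *Lce3* differences was not tested.

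Markers of some other cell types moved as well. Of 9 hair follicle markers, 5 fell by 2-fold or more and 0 rose (median -1.01), and their sum fell to 0.518 of its WT value, with *Krt71* the brightest. The count that fell was 9 under spike-in centring (median -1.44), 8 without scaling and 3 with normexp. Among red blood cell markers, *Alas2*, an enzyme of heme synthesis (log2 difference 1.32), *Slc4a1*, an anion exchanger of the red cell membrane (1.11), and *Hbb-bt*, a beta globin (1.04), rose by 2-fold or more, and the brightest, *Hba-a1*, an alpha globin, went from 81424 to 118798 (0.83). Of 8 leukocyte markers, 7 had a difference and 2 rose by 2-fold or more, *Lyz2* (2.35) and *Ptprc* (1.51), with a sum of 15.0 and 21.2, *Csf1r* the brightest and *Cd207* not above background on either array. *Itgam* stood at -0.03 by its brightest probe, but its other 2 probes gave 2.84 and 1.14, and averaging the probes (1.32) made it the third marker that rose. Of the markers of fibroblasts (6, median -0.07), adipocytes (5, 0.10), skeletal muscle (6, -0.02), endothelium (5, 0.31) and melanocytes (5, -0.38), 0 changed by 2-fold or more. In lists this short that is close to the 6.7% and 3.04% of all genes. Under spike-in centring none of these 4 red blood cell markers rose by 2-fold. The part of these cell types in the *Lce3* differences was not tested.

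The sequence before the start site is shown because 4 of the 6 genes are nearly alike there, which the choice of the family did not use. The 80 bases before the annotated start are given 5′ to 3′ on the strand of the gene, from the RefSeq promoter table on GRCm38.p6, which had an entry for all 6 genes. They lie at chr3:92926231-92926310 on the minus strand for *Lce3a* and on the plus strand at chr3:92932899-92932978 for *Lce3b*, chr3:92944406-92944485 for *Lce3c*, chr3:92957310-92957389 for *Lce3d*, chr3:92966981-92967060 for *Lce3e* and chr3:92992137-92992216 for *Lce3f*. Capitals mark the letters ATAAAA and CATGCTTG, which were looked for after the sequences had been read.
Lce3a: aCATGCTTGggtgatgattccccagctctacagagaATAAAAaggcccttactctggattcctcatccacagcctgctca
Lce3b: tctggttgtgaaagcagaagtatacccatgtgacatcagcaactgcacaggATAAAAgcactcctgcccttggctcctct
Lce3c: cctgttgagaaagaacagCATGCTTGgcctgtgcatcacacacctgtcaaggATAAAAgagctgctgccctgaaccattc
Lce3d: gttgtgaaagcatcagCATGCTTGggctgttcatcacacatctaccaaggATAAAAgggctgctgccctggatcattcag
Lce3e: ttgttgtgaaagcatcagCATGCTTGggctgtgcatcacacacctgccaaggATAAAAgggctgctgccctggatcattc
Lce3f: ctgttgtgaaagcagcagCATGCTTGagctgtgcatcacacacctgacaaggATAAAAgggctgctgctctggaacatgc

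Lined up on ATAAAA over 60 bases without gaps, the 6 pairs among *Lce3c*, *Lce3d*, *Lce3e* and *Lce3f* were 83.3% to 95% identical. The 9 pairs with *Lce3a* or *Lce3b* were 36.7% to 56.7% identical. Against the other 4 genes *Lce3b* was 50% to 56.7% identical and *Lce3a* 38.3% to 46.7%. Likeness that is shifted by inserted or missing bases is not counted this way, so these values can understate it. The 4 genes with nearly the same upstream sequence had log2 differences from 3.74 (*Lce3c*) to 7.36 (*Lce3f*). Of the 2 genes less identical to them in this ungapped comparison, *Lce3b* stood inside that range, at 4.81, and *Lce3a* above it, at 9.75.

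The first of these words resembles a TATA box, the element that sets the start of many promoters, and began 28 to 30 bases before the start in 5 genes and 44 bases before it in *Lce3a*. Counted on the strand of the gene with its start 40 to 20 bases before the start site, it stood in 5 of 6 *Lce3*, in 12 of 13 *Lce1* and in 1.74% of 32851 promoters. It was thus shared by the group that was higher and the group that was lower. CATGCTTG, counted from 90 to 40 bases before the start on the same strand, stood in 5 of 6 *Lce3* promoters, all but that of *Lce3b*, in 0 of 13 *Lce1* promoters and in 0.107% of all. Since these letters were picked from the *Lce3* sequences, the counts describe the family only.

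Another 7 motifs were searched on both strands of the 300 bases from 250 before to 50 after the start. The antioxidant response element that NRF2 binds (TGACNNNGC) stood in 3 *Lce3* promoters (*Lce3c*, *Lce3d* and *Lce3e*), in 1 of 13 *Lce1* promoters and in 12.4% of all promoters. The C/EBP word (TTGCNNAA) stood in 1, *Lce3f*, against 10.8% of all, and TATAAA in 1, *Lce3e*, against 13.6%. The AP-1 word (TGANTCA, 7.81% of all), the grainyhead-like word (AACNNGTT, 4.20%), the KLF word (GGGNGTGG, 17.6%) and the STAT word (TTCNNNGAA, 8.30%) stood in 0 of the 6. The NRF2 and AP-1 words overlap in part, as do TATAAA and ATAAAA, and a match or its lack describes these letters in this window, not binding by a factor.

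The 5 named genes outside the family whose differences were nearest to its median were *Ucp1* (99.2 in WT and 2246 in *Pnpla1*-/- skin, log2 difference 4.78), *Bcl2l15* (4.84), *Ehf* (4.75), *Sprr2h* (4.75) and *Sirpb1b* (4.72). *Ucp1* encodes the uncoupling protein of brown fat, and *Ehf* encodes an epithelial ETS factor. Likeness here rests on 1 difference between 2 arrays.

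Of 12 other ways of processing the arrays, 4 could not move these genes, each read by 1 unflagged spot that was well above background on both arrays. With the other 8, 48 of 48 values of the 6 *Lce3* genes were increases of 2-fold or more. This count tested little, because every reported difference was at least 3.74. Several of the 8 only shift all genes by the same amount. The ratios of the authors use almost the same factors as the 75th percentiles used here, so their values nearly repeat the reported ones. The lowest value of any gene was 3.31, for *Lce3c* with the arrays centred on the spike-in RNA, and the highest was 9.84, for *Lce3a* with cyclic loess.

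**Figure D5:**
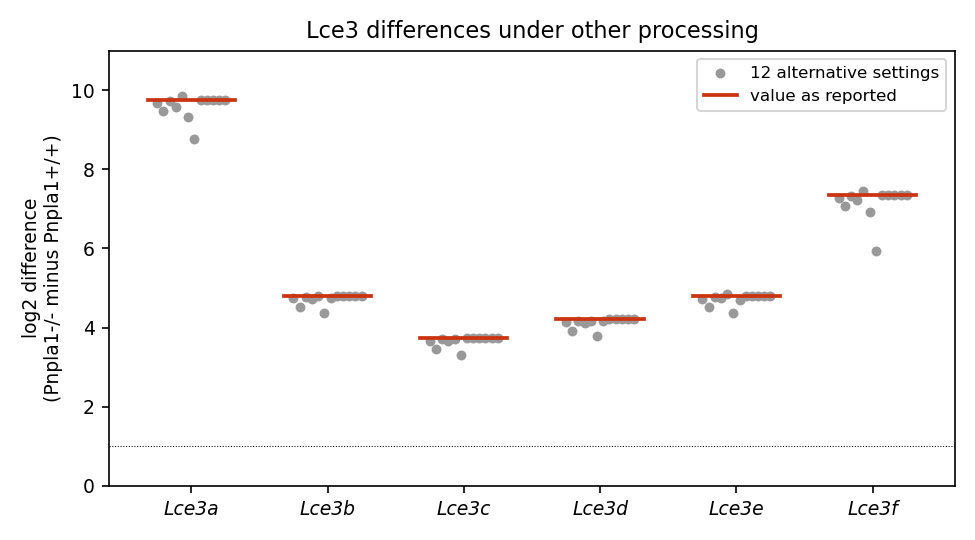
Log2 difference of each *Lce3* gene, *Pnpla1*-/- minus *Pnpla1*+/+, as reported (red bar) and under 12 other settings (grey points), 4 of which leave the values as reported, with a dotted line at 2-fold. The settings moved *Lce3a* to between 8.76 and 9.84 and *Lce3f* to between 5.95 and 7.45, and every point lies above 3.3.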

How the data were processed

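Skin RNA of *Pnpla1*+/+ and *Pnpla1*-/- newborns was measured on 2 one-colour Agilent mouse arrays, grouped by genotype from the labels. The authors scanned them, processed the images with Agilent Feature Extraction 11.5.1.1 (submitters' processing notes) and deposited the linear intensity of every spot, with its background subtracted. They state only that intensities were normalized globally. The authors also deposited, for each spot, a ratio of that intensity to 1 factor per array, 2109 and 1734, with column medians of 0.106 and 0.111, used here as an alternative.

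Here log2 of the intensity minus log2 of the array's 75th percentile was computed over 43020 spots other than controls (39429 probes) in Python 3.11.15 (numpy 2.4.6, pandas 2.3.3). Of these spots 71.7% were well above background for *Pnpla1*+/+ and 73.3% for *Pnpla1*-/-. Outlier-flagged spots (138 and 82) were left out, spots of a probe were averaged, and a gene was represented by its brightest probe. A difference was taken for the 20679 genes that both arrays measured well above background, and a bound, where one could be formed, for the 1718 that 1 array did, while 7735 genes were below on both. The software error of a difference combines the relative errors of the 2 spots, and the technical SD comes from 305 probes with at least 8 spots. With 1 array per genotype no test, p-value or SD between mice was possible, and genes were counted at 2-fold. Both arrays lay on 1 slide scanned together, so the slide could not enter as a term. Simulated data with known changes were used to test the computation.

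Probes were named through a RefSeq gene table on GRCm38.p6, used for names and gene order, 27502 by accession, 3549 by symbol, 404 by an older symbol and 3 (*Flg*) by description, while 7971 kept the name in the files. Probe coordinates were read from the scanner files, on mm9.

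The family, the lists, the motifs and the rule for named genes were chosen with earlier results of these data known. The genes named are the 6 *Lce3* genes, genes of the *Lce1* and late cornified envelope region lists, the 3 highest and 3 lowest of other lists, 6 measured neighbours on each side, the 5 nearest in difference, and *Pnpla1*. Outside this rule, and after their values were seen, the brightest markers and those not above background were named, as was *Itgam*. A marker, with the median and sum of its list, is not reported here. The alternatives in limma 3.58.1 (R 4.3.3) were normexp with an offset of 50, cyclic loess and quantile normalization. The others were no scaling, scaling by the median or by the 75th percentile over probes that neither array had as dim, 8 E1A spike-in probes as the centre, the ratios of the authors, averaging a gene's probes, dropping every probe that is dim on either array, keeping all dim probes, and keeping outlier-flagged spots.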

Additional observations from a re-analysis of the deposited data

How the results depend on the processing

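With 1 array per genotype no sample could be left out. No paired analysis was possible because each genotype has a single array with no replicate number. The median log2 difference of the 6 *Lce3* genes moved from 4.80 to 4.52 without scaling, to 4.37 with spike-in centring and to 4.72 with normexp. The counts of genes at least 2-fold higher and lower, 1499 and 681, became 998 and 1424 without scaling, 827 and 2178 with spike-in centring, 960 and 321 with normexp, and 3044 and 1107 with no filter on dim probes. At 1.5-fold they were 3093 and 2092, and at 3-fold 684 and 228. The share higher among changed genes was 68.8% as reported, 41.2% without scaling and 27.5% with spike-in centring, settings under which the median over all genes moved by -0.28 and -0.44, while it moved by 0.10 with no filter. The 8 spike-in probes read a median of 0.43 higher on the *Pnpla1*-/- array after scaling. Averaging probes, dropping or keeping dim probes and keeping outlier-flagged spots could not act on *Lce3*, whose genes have 1 unflagged probe each, well above background on both arrays. Under the other 8 settings, 29 of 48 values of single *Lce3* genes lay within 1 technical SD (0.08) of the reported one, 19 moved by more, and 0 reversed. The 29 include the ratios of the authors, which nearly repeat the reported scaling. The dim *Pnpla1*+/+ spots of *Lce3a* and *Lce3f* limit how well their folds are known.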
